A study of Homo sapiens with 4 samples.

Results

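The loop hubs of the colorectal cancer line LS513 were the DNA segments that joined the most other segments in its H3K27ac HiChIP library. For each anchor (a segment at 1 end of a loop), the paired-end tags (PETs) of its filtered loops were summed, and the partner anchors joined to it by 2 or more PETs were counted. The 25 anchors with the most PETs and the 25 with the most partners were taken as the leading hubs. They came to 42 of 20456 LS513 anchors, since 8 stood in both lists, and they lay in 33 loci when hubs less than 250 kb apart were put together. The other libraries came from the lines HCT116, SW480 and SW620, with 1 library per line. All 4 lines were untreated, bought from ATCC and fixed in 1% formaldehyde for 10 minutes, with 0.125 M glycine for 5 minutes to stop the reaction. SW480 and SW620 are known to come from the same patient.

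HiChIP ligates DNA ends that are close in the fixed nucleus and keeps the fragments that an antibody pulls down. Acetylation of lysine 27 of histone H3 marks active promoters and enhancers, so the loops join active elements. An anchor with many PETs or partners is often a cluster of enhancers or a dense group of active promoters. The labelled cell type could not be checked against marker genes across the genome, because no hg19 annotation was used. The genes named here come from general knowledge of the hg19 map, as background, and a hub was named for genes that start in it or overlap it.

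Sequences of a few genes show what lies at the hubs. The hub with the second highest number of partners holds the cluster of miR-23a, miR-27a and miR-24-2, small RNAs made from 1 shared transcript. Their mature 3p sequences (RefSeq, GRCh38.p14) follow, with the seed, bases 2 to 8, in capitals. The 3 seeds differed from each other.
hsa-miR-23a-3p: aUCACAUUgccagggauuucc
hsa-miR-27a-3p: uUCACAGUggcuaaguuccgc
hsa-miR-24-3p: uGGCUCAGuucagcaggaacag

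The promoters of EFNA3, ELF3 and LCN2 are shown because their hubs carried more normalised PETs in LS513 than in any other library and the RefSeq table gives 1 start for each gene. EFNA3 encodes an ephrin, a ligand on the cell surface. ELF3 encodes an ETS transcription factor of epithelia, and LCN2 encodes lipocalin-2, a secreted protein that binds bacterial iron carriers. Each sequence is the 250 bases before the start on the plus strand (GRCh38.p14), with the GC box GGGCGG, or its reverse complement CCGCCC, in capitals.
EFNA3: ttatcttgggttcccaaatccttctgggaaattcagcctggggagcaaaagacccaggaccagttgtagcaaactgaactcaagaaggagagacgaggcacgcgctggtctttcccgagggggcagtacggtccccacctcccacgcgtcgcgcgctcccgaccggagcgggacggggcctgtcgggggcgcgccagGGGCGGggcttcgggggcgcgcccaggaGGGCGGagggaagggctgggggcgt
ELF3: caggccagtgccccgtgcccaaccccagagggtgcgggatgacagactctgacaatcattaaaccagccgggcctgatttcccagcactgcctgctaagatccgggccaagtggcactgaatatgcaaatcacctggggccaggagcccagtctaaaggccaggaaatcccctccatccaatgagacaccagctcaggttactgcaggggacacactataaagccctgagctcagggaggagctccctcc
LCN2: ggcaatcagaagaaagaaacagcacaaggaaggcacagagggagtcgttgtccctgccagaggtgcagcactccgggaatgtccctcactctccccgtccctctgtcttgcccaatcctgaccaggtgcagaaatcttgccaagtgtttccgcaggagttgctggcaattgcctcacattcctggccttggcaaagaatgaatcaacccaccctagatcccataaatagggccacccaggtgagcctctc
The EFNA3 promoter held 2 GC boxes and 23 CG dinucleotides, while the ELF3 and LCN2 promoters held no GC box and 4 CG dinucleotides each. Their GC contents were 67.6%, 58.4% and 54.8% in the same order. Of 35116 promoters in the table, 42.6% held a GC box on either strand in this window, and the median promoter had 11 CG dinucleotides and a GC content of 58%. These are descriptions of letters, and no factor's binding was measured.

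The LS513 library held 74401 filtered loops with 222113 PETs. The HCT116 library held 81579 filtered PETs, SW620 held 152421 and SW480 held 13885, so SW480 was by far the shallowest. Levels are given as normalised PETs, the count per 1000000 filtered PETs in that library. A count of 0 allowed up to 13.5 in LS513, 36.8 in HCT116, 19.7 in SW620 and 216 in SW480. Of the LS513 anchors, 20248 were listed with identical coordinates in HCT116, 359 in SW480 and 1571 in SW620. At a hub, the PETs of another library were those of its filtered loops with an anchor overlapping the hub by at least 1 bp. With 1 library per line there was no spread between replicates and no significance test. A hub was called higher in LS513 where the exact 95% interval of its ratio to the highest other library lay above 1. It was called lower where LS513 stood below even the lowest other library, with an interval that ended below 1. These intervals cover counting error only, and PETs without molecular identifiers are not all independent molecules. Copy number and the activity per copy cannot be told apart in these counts.

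The leading hubs took a large share of the loops for their number, which follows from the ranking and is a description. They made up 0.205% of LS513 anchors, and loops with a hub at either end held 12510 PETs, or 5.63% of all filtered PETs. The median LS513 anchor had 10 PETs and 2 partners, the 99th percentile was 173 PETs and 17 partners, and 4466 anchors had no partner joined by 2 or more PETs. The hub ranked 25 by PETs had 347 and the next anchor had 346. By partners, the hub ranked 25 had 25 partners and 225 PETs, and the next anchor also had 25 partners but 175 PETs. PETs and partners went together across the 20456 anchors of this library (Spearman's rank correlation 0.93, a description, since both count the same reads). Hubs were long, with a median of 24.96 kb (range 4.34 to 66.7) against 4.62 kb for all anchors and 13.5 kb for the 716 anchors with 100 or more PETs. PETs and anchor length also went together across the 20456 anchors (Spearman's rank correlation 0.48), so the length of the hubs is not independent of the ranking.

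**Figure D1:**
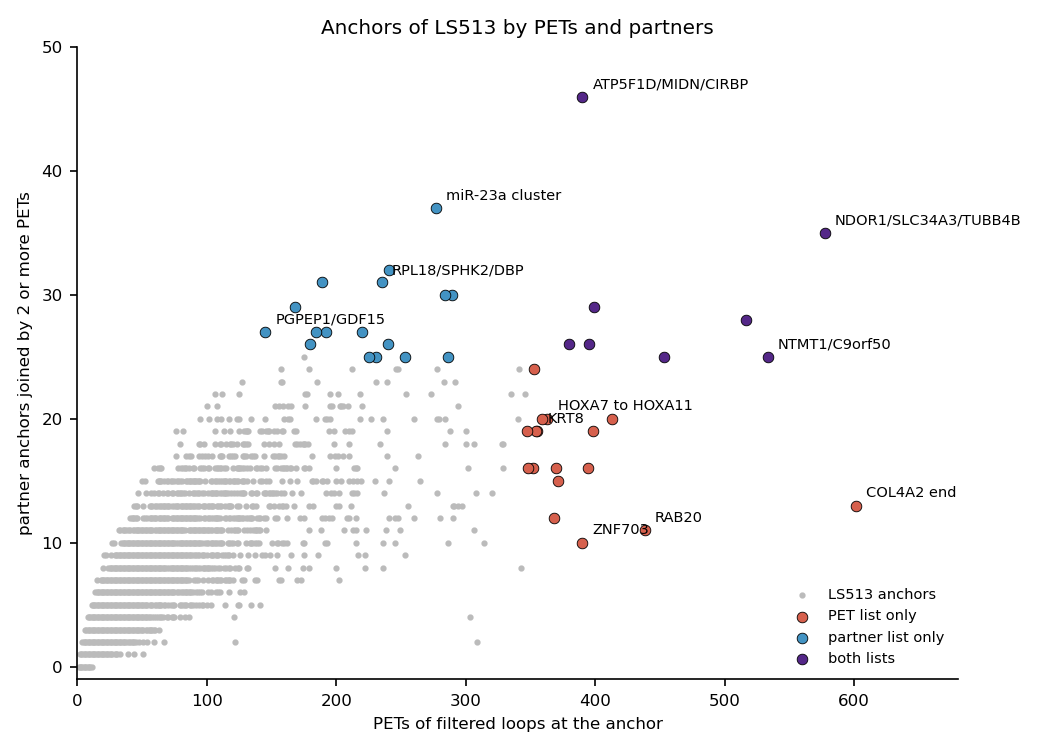
Each point is an LS513 anchor, with the PETs of its filtered loops on the x axis and its partners joined by 2 or more PETs on the y axis. The COL4A2 end had the most PETs (601) with 13 partners, and the ATP5F1D, MIDN and CIRBP hub had the most partners (46) with 390 PETs.

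The PET list and the partner list are described apart, and since 1 was ranked by PETs and the other by partners, their differences in partners and in the share of the strongest loop follow from the ranking. In the list of 25 by PETs, the strongest loop carried a median of 39.9% of a hub's PETs, the median hub had 19 partners, and 1 of 25 lay on chromosome 19. In the list of 25 by partners, the strongest loop carried a median of 23.3%, the median hub had 27 partners, and 8 of 25 lay on chromosome 19, a chromosome rich in genes that held 6.03% of all LS513 anchors. The distance to the partner, as the median over a hub's PETs, had a median of 53.2 kb in the PET list and 98.5 kb in the partner list. Each PET counts in this distance, so the strongest loop weighs most, and this difference can also follow from the ranking. The RAB20 hub was the extreme of the one kind, with 68.0% of its 438 PETs in 1 loop. The hub of ATP5F1D, a subunit of ATP synthase, MIDN and the cold-inducible RNA-binding protein gene CIRBP was the extreme of the other, with 7.95% of its 390 PETs in its strongest loop.

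In the comparison of LS513 with the other libraries, 17 of 42 hubs were called higher, and 0 of the 13 hubs where the lower call could be made were called lower. Of all LS513 anchors with 10 or more PETs, 5.35% were called higher, and of the 716 with 100 or more PETs, 23.2%. Over all LS513 anchors, the lower call could be made at 988 and was made at 12.9% of them, and at 4.33% of those with 100 or more PETs in LS513. The hubs were picked for their PETs in LS513, which favours LS513, so these counts are descriptions. The median hub had 1592 normalised PETs in LS513, 962 in HCT116, 695 in SW620 and 216 in SW480. All 42 hubs had an anchor in HCT116, 37 (88.1%) had one in SW620 and 30 (71.4%) in SW480. Of the 716 anchors with 100 or more PETs, 100% had one in HCT116, 91.9% in SW620 and 57.8% in SW480. Over all LS513 anchors the shares were 98.98%, 70.5% and 25.5% in the same order. At 26 hubs all 3 other libraries had an anchor. Of those 26 hubs, 8 were called higher, against 58 of 383 anchors with 100 or more PETs that overlapped in all 3 (15.1%). After every library was thinned to the depth of SW480, 7 of 42 hubs were called higher, against 27 of the 716 anchors with 100 or more PETs (3.77%).

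**Figure D2:**
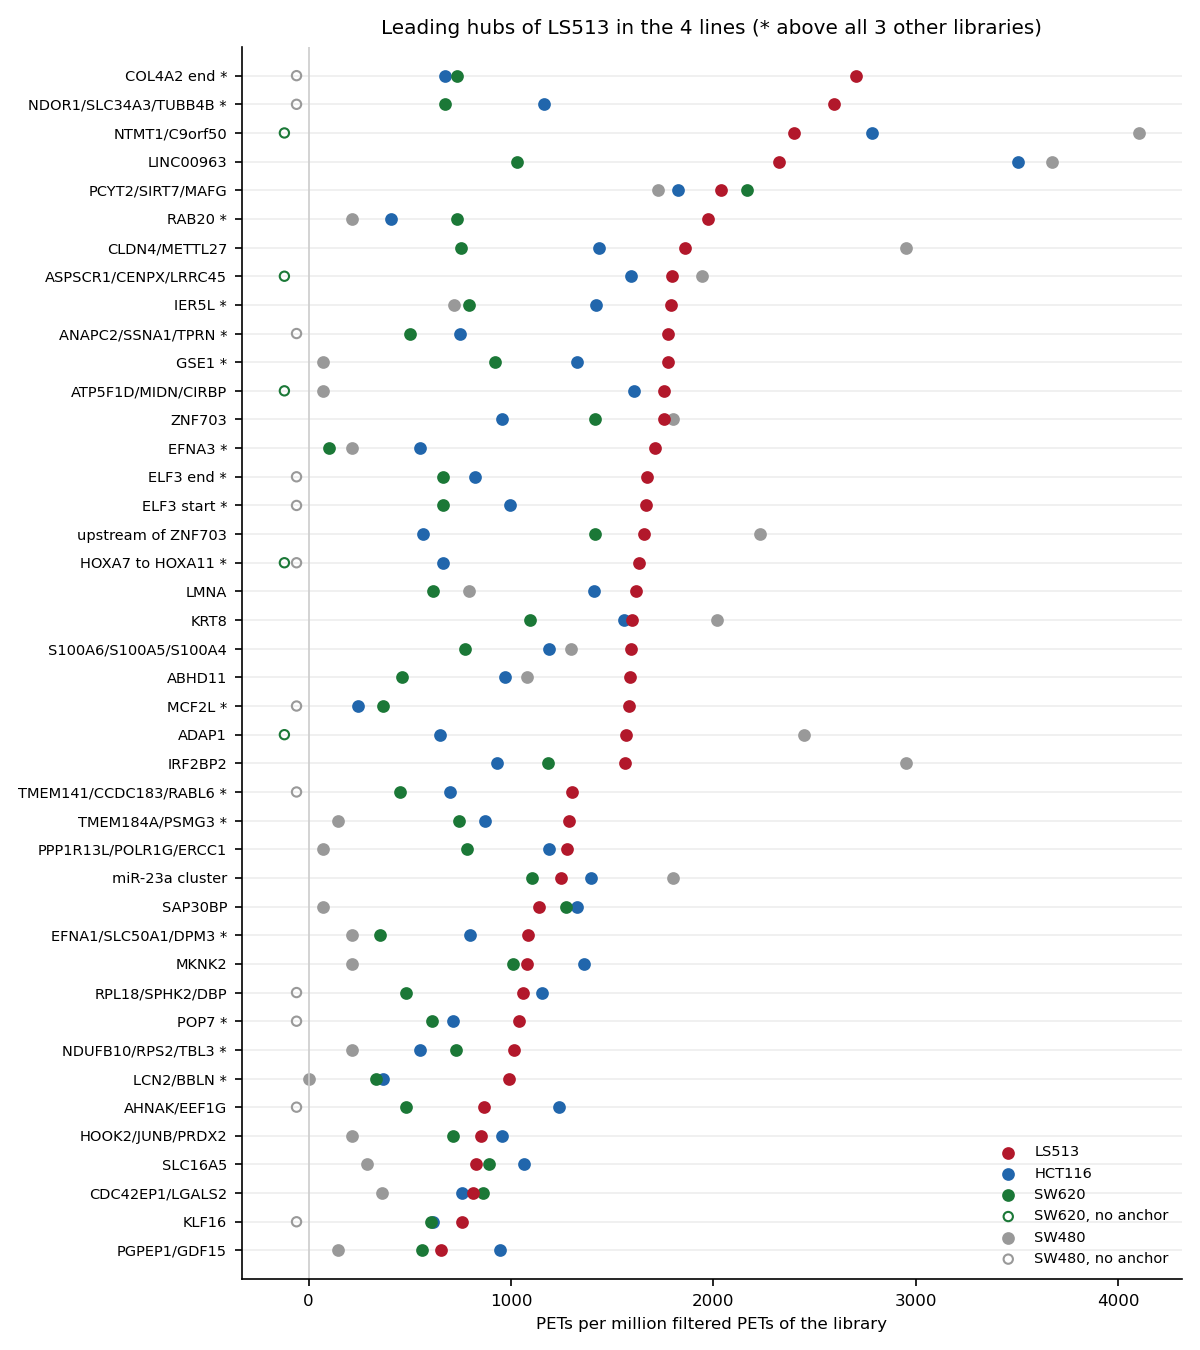
Each row is a leading hub, ordered by its PETs in LS513, and the x axis gives PETs per 1000000 filtered PETs, with 1 point per library. Open circles left of 0 mark libraries that list no overlapping anchor, and an asterisk marks the 17 hubs called higher in LS513. Red points of LS513 lie to the right of all others at hubs such as the COL4A2 end, EFNA3 and MCF2L, and grey SW480 points lie to the right at LINC00963, NTMT1 and IRF2BP2.

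The hub with the most PETs lay at the end of COL4A2, which encodes a collagen chain of basement membranes, at chr13:111153076-111165630. It had 601 PETs in LS513, 55 in HCT116, 112 in SW620 and no anchor in SW480. In normalised PETs, LS513 had 2706, HCT116 674 and SW620 735. LS513 thus stood 3.68-fold above SW620, the highest other library (95% interval 3.01 to 4.55). The neighbouring hub, chr13:111168651-111185366, covers the end of RAB20, which encodes a small GTPase of membrane traffic. It had 438 PETs in LS513, 33 in HCT116, 3 in SW480 and 112 in SW620, and its ratio to SW620 was 2.68 (2.18 to 3.33). The loop between these hubs carried 298 PETs in LS513 and 23 in HCT116. SW620 lists 1 anchor of 44.6 kb, chr13:111151140-111195715, over both hubs, so the same 112 PETs were counted for each and their loop could not be seen there. For PETs that leave the pair, LS513 had 443, HCT116 had 42, SW480 had 3 and SW620 had 112, or 1994, 515, 216 and 735 normalised PETs, so LS513 was above the others on this count too. The second partner of the COL4A2 hub, 53.0 kb away at chr13:111205589-111219094 and holding the start of RAB20, had 114 PETs in LS513, 12 in HCT116 and 24 in SW620.

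Another hub of chromosome 13 lay in MCF2L, which encodes a guanine nucleotide exchange factor, at chr13:113632565-113657982. It had 352 PETs in LS513, 20 in HCT116, 56 in SW620 and no anchor in SW480, or 1585, 245 and 367 normalised PETs. SW620 was the highest other library, and the ratio to it, 4.31 (3.25 to 5.83), was the largest ratio to the highest other library among the 42 hubs. The hub ranked 1844 by PETs in HCT116, the lowest place of any LS513 hub. Chromosome 13 as a whole held 2.60% of filtered PETs in LS513, 1.19% in HCT116, 3.02% in SW480 and 1.59% in SW620. On it, 19.03% of LS513 anchors with 10 or more PETs were called higher, the highest share of any chromosome. When the hubs were scaled by the filtered PETs of the chromosome, the ratios to the highest other library fell to 1.83 at the COL4A2 end, 1.64 at RAB20 and 2.63 at MCF2L, and all 3 stayed above 1 with their intervals. The part of chromosome copy number in these ratios was not tested.

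Chromosome 9 held 7 leading hubs, and 15.9% of its LS513 anchors with 10 or more PETs were called higher. Near its end, the hub at chr9:140106387-140138647 covers NDOR1, the phosphate transporter gene SLC34A3 and TUBB4B, a beta-tubulin gene. It had 577 PETs and 35 partners in LS513, with 95 PETs in HCT116, 103 in SW620 and no anchor in SW480. Its 2598 normalised PETs stood 2.23-fold (1.79 to 2.80) above HCT116, or 1.63-fold when scaled by chromosome. The adjacent hub, chr9:140078541-140102693, holds ANAPC2, a subunit of the anaphase-promoting complex, with SSNA1, TPRN, TMEM203 and also NDOR1. It had 395 PETs in LS513, 61 in HCT116 and 76 in SW620, a ratio of 2.38 (1.81 to 3.17) to HCT116, or 1.74 when scaled by chromosome. The loop between them had 230 PETs in LS513, 27 in HCT116 and 25 in SW620, which is 1036, 331 and 164 normalised PETs. Both hubs also reached, over 428 kb and 396 kb, the hub of TMEM141, CCDC183 and RABL6. These loops had 16 and 12 PETs in LS513, 1 each in HCT116, and 7 and 0 in SW620. The first was 72.0 normalised PETs in LS513, 12.3 in HCT116 and 45.9 in SW620.

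In a triangle of 3 hubs on the same chromosome, LS513 was highest in normalised PETs only at the IER5L corner. LINC00963, a long non-coding RNA gene, at chr9:132218057-132271368, had 516 PETs in LS513, 286 in HCT116, 51 in SW480 and 157 in SW620. In normalised PETs SW480 was highest with 3673, HCT116 had 3506, LS513 had 2323 and SW620 had 1030. NTMT1, an N-terminal methyltransferase gene, with C9orf50, at chr9:132352765-132377639, had 533 PETs in LS513, 227 in HCT116, 57 in SW480 and no anchor in SW620, and SW480 was again highest with 4105 normalised PETs against 2400 in LS513. The ratio of LS513 to HCT116 was 0.663 (0.572 to 0.768) at LINC00963 and 0.862 (0.737 to 1.01) at NTMT1, so only the first interval lay below 1. The third corner, at IER5L (chr9:131926906-131949432), had 398 PETs in LS513, 116 in HCT116, 10 in SW480 and 121 in SW620. Its ratio to HCT116 was 1.26 (1.02 to 1.56), and it fell below 1, to 0.921, when scaled by chromosome, so its call as higher hangs on the scaling. In LS513 the sides of the triangle carried 143 PETs (LINC00963 to NTMT1), 87 (IER5L to LINC00963) and 85 (IER5L to NTMT1, over 427 kb). In HCT116 they carried 67, 38 and 15, in SW480 21, 2 and 5. SW620 had 35 PETs on the side from IER5L to LINC00963. As normalised PETs the longest side was 383 in LS513, 184 in HCT116 and 360 in SW480, and the shortest was 644, 821 and 1512 in the same order.

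On chromosome 1, EFNA3 and EFNA1, neighbouring ephrin genes, each lay in a hub. The EFNA3 hub, chr1:155048524-155060623, had 380 PETs in LS513, 45 in HCT116, 3 in SW480 and 15 in SW620. Its 1711 normalised PETs were 3.10-fold (2.27 to 4.32) above HCT116, and SW620 had 98.4. The EFNA1 hub, chr1:155086524-155114183, also holds SLC50A1, a sugar transporter gene, and DPM3. It had 241 PETs and 32 partners in LS513, with 65 PETs in HCT116, 3 in SW480 and 54 in SW620, and its ratio to HCT116 was 1.36 (1.03 to 1.82). Scaled by chromosome, the ratios to HCT116 were 2.95 at the EFNA3 hub and 1.30 at the EFNA1 hub, where the interval then reached below 1. The loop between them had 61 PETs in LS513, 6 in HCT116, 0 in SW480 and 2 in SW620. Both ends were listed as anchors in all 4 libraries. The margin over HCT116 was thus wider at EFNA3 than at EFNA1, and the intervals of their ratios did not overlap.

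The ELF3 gene carried a hub at its start, chr1:201971528-201984354, and another at its end, chr1:201985842-201993675. They had 370 and 371 PETs in LS513, 81 and 67 in HCT116, and no anchor in SW480. SW620 lists 1 anchor of 19.1 kb over both, with 101 PETs. The ratios to HCT116 were 1.68 (1.32 to 2.16) at the start and 2.03 (1.56 to 2.68) at the end. The PETs that leave the pair were 519 in LS513, 114 in HCT116 and 101 in SW620, or 2337, 1397 and 663 normalised PETs. The loop inside the gene had 111 PETs in LS513 and 17 in HCT116.

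CLDN4, which encodes a tight junction protein, lay with METTL27 in a hub at chr7:73234937-73258355. It had 413 PETs in LS513, 117 in HCT116, 41 in SW480 and 115 in SW620, and SW480 was highest with 2953 normalised PETs against 1859 in LS513. The hub of ABHD11, a mitochondrial hydrolase gene, at chr7:73148251-73162843, had 353 PETs in LS513, 79 in HCT116, 15 in SW480 and 70 in SW620. LS513 was highest there with 1589 normalised PETs, but its ratio to SW480, 1.47 (0.880 to 2.66), was not set apart from 1 at the depth of SW480. The loop between them had 113, 27, 8 and 27 PETs in LS513, HCT116, SW480 and SW620.

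At PCYT2, SIRT7, MAFG, PYCR1 and NOTUM, a dense group of genes at chr17:79861865-79928607, the longest hub (66.7 kb) had 453 PETs in LS513, 149 in HCT116, 24 in SW480 and 330 in SW620. Normalised PETs were 2040, 1826, 1728 and 2165 in that order, and the ratio to SW620 was 0.942 (0.816 to 1.09). This was among the most even hubs. The adjacent hub of ASPSCR1, CENPX, LRRC45, RAC3 and DCXR, chr17:79946860-79996995, had 399 PETs in LS513, 130 in HCT116, 27 in SW480 and no anchor in SW620. Its levels in the 3 libraries that list it were 1796, 1594 and 1945. The loop between these hubs had 173 PETs in LS513, 51 in HCT116 and 24 in SW480.

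ZNF703, a transcriptional repressor gene, lay in a hub at chr8:37546329-37557240, joined to a hub upstream of it at chr8:37444282-37472272. The gene's hub had 390 PETs in LS513, 78 in HCT116, 25 in SW480 and 216 in SW620, and the upstream hub had 368, 46, 31 and 216. Against HCT116 the ratios were 1.84 (1.44 to 2.37) and 2.94 (2.16 to 4.08), while SW480 was highest in normalised PETs at both, with 1801 and 2233. The loop between them had 186 PETs in LS513, 23 in HCT116, 8 in SW480 and 102 in SW620, or 837, 282, 576 and 669 normalised PETs. HCT116 was the lowest line at both hubs and on the loop, and LS513 was the highest on the loop. At the hubs the ratios of LS513 to SW480, 0.975 (0.651 to 1.53) and 0.742 (0.514 to 1.11), were not set apart from 1. The last locus with more than 1 hub joined MKNK2, a kinase gene acting below MAP kinases, and KLF16, a zinc finger gene, on chromosome 19. The MKNK2 hub, chr19:2039013-2066522, had 240 PETs in LS513, 111 in HCT116, 3 in SW480 and 154 in SW620, and HCT116 was highest with 1361 normalised PETs against 1081 in LS513. The KLF16 hub, chr19:1852868-1866985, had 168 PETs in LS513, 50 in HCT116, 92 in SW620 and no anchor in SW480, and its ratio of 1.23 (0.895 to 1.73) to HCT116 was not set apart from 1. The loop between them had 9 PETs in LS513, 5 in HCT116 and 14 in SW620.

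The HOXA hub, chr7:27185415-27231039, holds HOXA7, HOXA9, HOXA10 and HOXA11, homeobox genes of body patterning. It had 363 PETs in LS513 and 54 in HCT116, and neither SW480 nor SW620 lists an anchor there. Its ratio to HCT116 was 2.47 (1.85 to 3.35), with 1634 against 662 normalised PETs. Its strongest loop went 36.8 kb to chr7:27236006-27253960, with 146 PETs in LS513 and 20 in HCT116. Its second loop went 1.31 Mb to chr7:25894340-25899725, with 61 PETs in LS513 and 6 in HCT116, or 275 and 73.5 normalised PETs. Of 7324 LS513 loops over 1 Mb, 8 had 10 or more PETs, and this one had the most and was the only one of the 8 at a leading hub.

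**Figure D3:**
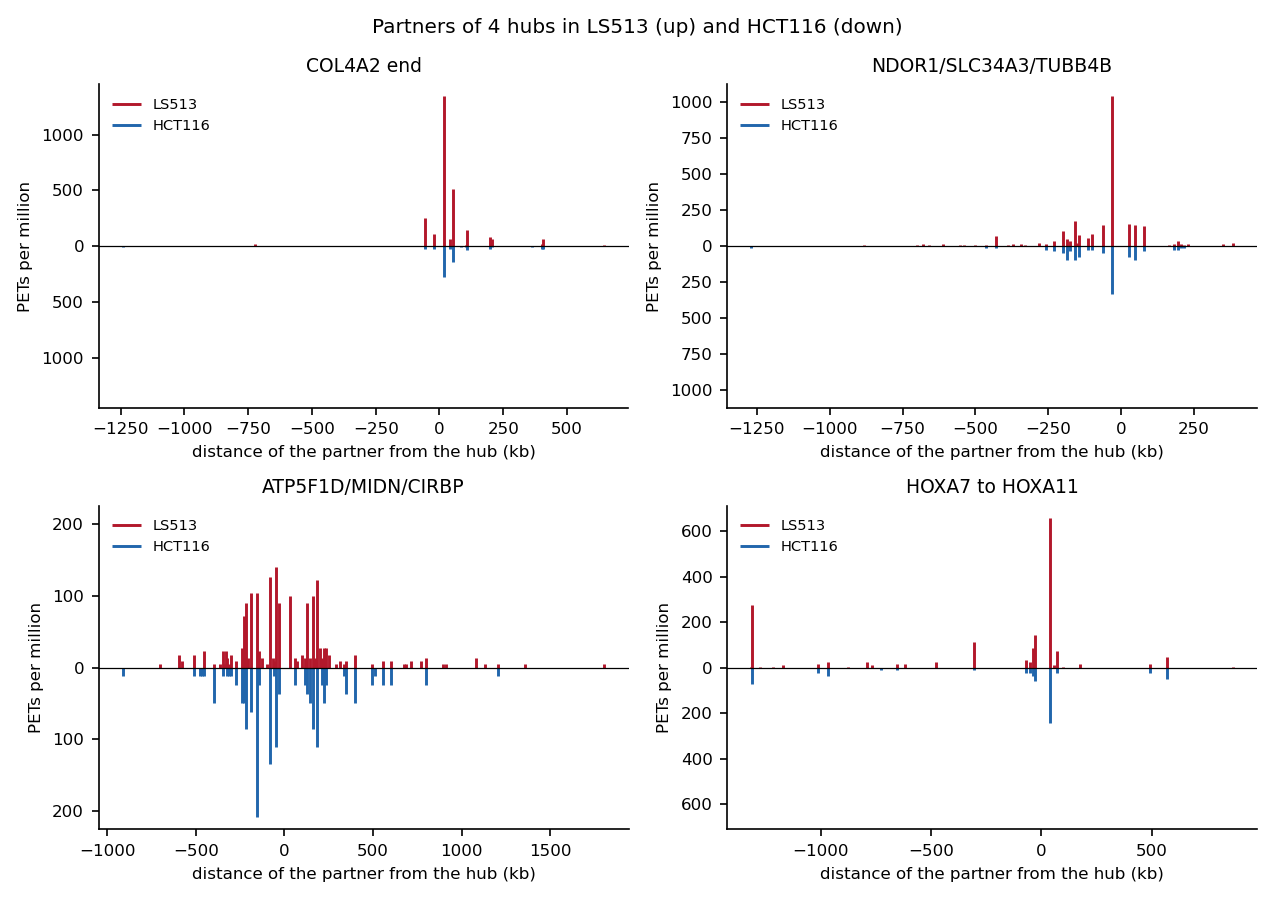
Each line is a partner of a hub, placed by its signed distance in kb, with PETs per 1000000 filtered PETs in LS513 drawn upward and in HCT116 downward, for 4 hubs. The COL4A2 end and the NDOR1, SLC34A3 and TUBB4B hub rise to 1 main partner in LS513, the ATP5F1D, MIDN and CIRBP hub spreads over many partners in both lines, and the HOXA hub has a partner 1311 kb away.

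LCN2 and BBLN shared a hub at chr9:130904666-130925076 with 220 PETs and 27 partners in LS513. HCT116 had 30 PETs there, SW480 0 and SW620 51. The ratio to HCT116 was 2.69 (1.83 to 4.09), and it was 1.69 against SW620, then the highest other library, when scaled by chromosome. Of the other hubs called higher, GSE1, TMEM141, TMEM184A, POP7 and the NDUFB10 and RPS2 group had ratios to the highest other library from 1.34 to 1.86. Scaled by chromosome, the ratios to HCT116 were 1.22 at TMEM184A and 1.20 at POP7, where the intervals then reached below 1. At GSE1 (1.28) and TMEM141 (1.36) they stayed above 1. At the NDUFB10 and RPS2 group, of ribosomal protein and mitochondrial complex genes on chromosome 16, the ratio of 1.39 became 0.521 against SW480 per kb of overlapping anchor. That SW480 level rests on only 3 PETs in an anchor of 3.95 kb, the count taken as the limit of a 0.

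Of the 25 hubs in the partner list 9 were called higher, and of the 25 in the PET list 11. The called ones of the partner list included those of NDOR1 with SLC34A3 and TUBB4B (35 partners), EFNA1 (32) and TMEM141 (30). The ATP5F1D, MIDN and CIRBP hub, chr19:1233559-1278515, had 46 partners and 390 PETs in LS513 and 26 partners and 131 PETs in HCT116, and was first by partners in both. Its ratio to HCT116 was 1.09 (0.895 to 1.34), SW480 had 1 PET and SW620 lists no anchor. The miR-23a cluster, chr19:13942612-13978602, had 37 partners and 277 PETs in LS513, 22 partners and 114 PETs in HCT116, 25 PETs in SW480 and 168 in SW620. Its normalised PETs, 1247, 1397, 1801 and 1102, gave a ratio of 1.13 to SW620, the lowest other library, and its upper bound of 1.38 was the lowest among the 42 hubs. The hub of RPL18, SPHK2 and DBP had 31 partners in LS513 and 18 in HCT116, with a ratio of 0.918 (0.720 to 1.18), and that of HOOK2, JUNB and PRDX2, JUNB being a subunit of the AP-1 factor, had 31 and 17 partners with a ratio of 0.890 (0.680 to 1.17). At the hubs of AHNAK with EEF1G and of PGPEP1 with GDF15, LS513 lay below HCT116, at 0.698 (0.546 to 0.897) and 0.692 (0.521 to 0.924). Scaled by PETs of all same-chromosome pairs, the ratios to the highest other library turned to 1.11 and 1.06 at these hubs. With LS513 thinned to the depth of HCT116, 25 of 42 hubs had more partners in LS513, 14 had fewer and 3 had equal numbers, with medians of 13 and 10.5. Of the 716 anchors with 100 or more PETs, 56.7% had more partners in LS513 and 26.3% fewer. Of the 41 leading hubs of HCT116, 7 had more and 28 fewer, so each count went with the line in which the hubs were picked.

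At the other hubs of the PET list the order of the lines varied. KRT8, a keratin of simple epithelia, had 355 PETs in LS513, 127 in HCT116, 28 in SW480 and 167 in SW620, or 1598, 1557, 2017 and 1096 normalised PETs. IRF2BP2, a transcriptional corepressor gene, had 347, 76, 41 and 180 PETs in the same order, and its 2953 normalised PETs in SW480 exceeded the 1562 in LS513. ADAP1 had 348 PETs in LS513, 53 in HCT116, 34 in SW480 and no anchor in SW620. In normalised PETs these were 1567, 650 and 2449, so SW480 was highest and the ratio of LS513 to it was 0.640 (0.449 to 0.939). LMNA, which encodes nuclear lamins, had 359 PETs in LS513, 115 in HCT116, 11 in SW480 and 94 in SW620, or 1616, 1410, 792 and 617 normalised PETs. Its ratio to HCT116 was 1.15 (0.927 to 1.43). The S100A6, S100A5, S100A4 and S100A3 hub of calcium-binding proteins had 354, 97, 18 and 118 PETs in the same order, or 1594, 1189, 1296 and 774 normalised PETs. Its ratio to HCT116 was 1.34 (1.07 to 1.70), but that to SW480, the highest other library, was 1.23 (0.767 to 2.10).

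Against HCT116 alone, where all 42 hubs have identical anchors, 24 hubs were higher in LS513 and 3 lower. Among all 10716 identical anchors with 10 or more PETs in either library, 10.6% were higher and 9.73% lower, and among the 716 with 100 or more PETs in LS513 40.1% and 8.38%. The median ratio was 1.34 at the hubs, 1.29 at those 716 anchors and 0.918 at the anchors with PETs in both. Seen from HCT116, its own 41 leading hubs had a median ratio of LS513 to HCT116 of 0.692, with 6 higher and 23 lower in LS513. Of these, 16 were also leading hubs of LS513, or 39.02% of the HCT116 list and 38.1% of the LS513 list. For SW620 it was 6 of 43 (13.95%), and for SW480 2 of 35 (5.71%). These shares cannot be compared between lines. HCT116 lists 20248 of the 20456 LS513 anchors with identical coordinates, SW620 1571 and SW480 359, and SW480 had only 13885 filtered PETs. The median LS513 hub ranked 103 by PETs in HCT116, and 21 of 42 stood within its first 100. The LS513 list thus favoured LS513 and the HCT116 list favoured HCT116.

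A readout that the ranking did not use was the PETs with both ends in the same anchor. These PETs need no partner anchor. They come from the same libraries and from anchors picked for LS513 loops, so they are not independent of the loop counts. Per 1000000 such PETs, the hubs had a median ratio of LS513 to HCT116 of 1.53, and 34 of 42 (81.0%) were above 1. The 716 anchors with 100 or more PETs had a median of 1.28 with 70.8% above 1, near the share at the hubs. All identical anchors with such PETs in HCT116, including any with none in LS513, had a median of 0.830 with 39.04% above 1. The ratio was 6.32 at MCF2L (1524 and 150 PETs), 6.21 at the COL4A2 end (1907 and 191) and 5.36 at ADAP1 (1301 and 151). At the AHNAK hub it was 0.723 (416 and 358). At some hubs the loop and self-ligation ratios lay on opposite sides of 1. They were 0.918 and 1.59 at RPL18, 0.892 and 1.22 at the miR-23a cluster, and 1.12 and 0.945 at PCYT2. Over the 716 anchors the loop ratio and the self-ligation ratio had a Spearman's rank correlation of 0.72, a description across anchors of the same 2 libraries.

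**Figure D4:**
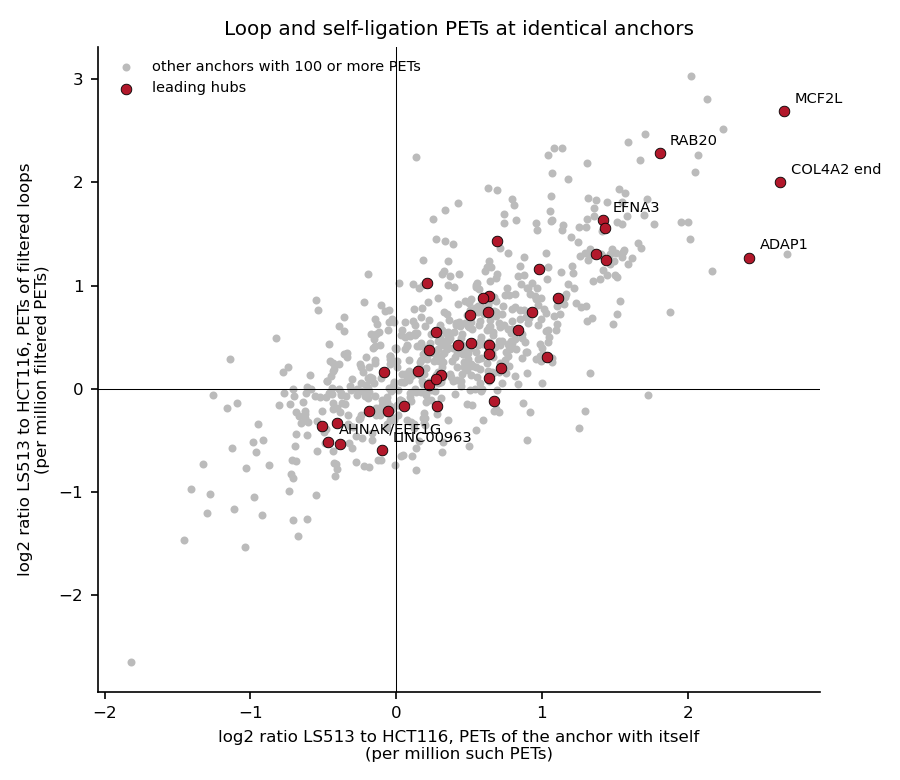
Each point is an anchor with identical coordinates in LS513 and HCT116 and 100 or more LS513 PETs, with the log2 ratio of PETs inside the anchor on the x axis and of loop PETs on the y axis. Leading hubs are red. MCF2L, RAB20 and the COL4A2 end lie at the upper right, and the AHNAK and LINC00963 hubs lie below 0 on the y axis.

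Among all 716 anchors with 100 or more PETs, the 10 with the highest lower bound of the ratio to the highest other library included the MCF2L and COL4A2 hubs and 8 anchors outside the leading hubs. Of these 8, chr13:113596198-113599832 and chr13:113621269-113625566 also lay in MCF2L and were partners of its hub, joined to it by 77 and 156 PETs in LS513 against 3 and 6 in HCT116. Next to CDX1, an intestinal homeobox gene, chr5:149537439-149545894 had 131 PETs in LS513, 10 in HCT116 and 25 in SW620. On the other side of that gene, an anchor at SLC6A7, chr5:149583805-149598985, had 114, 8 and 11. The anchor between MUC6 and MUC2, genes of gel-forming mucins, chr11:1048206-1057643, had 153 PETs in LS513, 8 in HCT116 and 22 in SW620, with a ratio of 4.77 (3.04 to 7.84). CEBPA, a transcription factor gene of differentiation, had 110, 8 and 20 PETs, and ATP6V0D1, a proton pump subunit gene, had 136 and 9 with no anchor in SW620. None of these 8 anchors had an anchor in SW480. The last, at MUC20P1, had 303 PETs, of which 291 went to an anchor 103 kb away at MUC20. The pseudogene and the gene are near-identical copies, so reads of one may have been placed at the other and this loop is uncertain.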

How the data were processed

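H3K27ac HiChIP had been run on 4 untreated colorectal cancer lines. Per the submitters' processing notes, the authors used HiC-Pro and the hg19 (GRCh37) build. No source used here names the loop caller or says where the anchors came from. The deposited tables hold whole-number counts of PETs for pairs of anchors, pairs of an anchor with itself and pairs between chromosomes in separate tables. Filtered pairs lay 5 kb to 2.00 Mb apart. A further deposited table repeats the counts and adds a number from 0 to 1 without a header, taken for an FDR (an adjusted p-value from the authors) and used in 1 alternative only.

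From the counts, hubs, partners and ratios were computed with Python 3.11.15, numpy 2.4.6, pandas 2.3.3 and scipy 1.17.1, on chromosomes 1 to 22 and X (5 filtered loops elsewhere were left out). A call needed at least 10 PETs in the higher library. Intervals were exact conditional (Clopper-Pearson) at 95%, and a floor of 3 counts gave the limit of a count of 0. On simulated data, drawn over all anchors expecting 10 or more LS513 PETs, the call found most of the raised anchors but few of the lowered ones. The hubs were not simulated apart, and they were picked for high LS513 counts, so an absence of lower calls among them says little. The hubs and lists were chosen with earlier results of these data known. Named in full were the hubs of the 10 loci with the most PETs, the 5 hubs with the highest lower bound to the highest other library, the 5 with the lowest upper bound to the lowest other library, and the 10 anchors of 100 or more PETs with the highest lower bound. Other hubs were named after their values were seen. No hg19 annotation was used, so the marker and gene lists planned for one were not run. All 95 gene symbols named at anchors were found in RefSeq GRCh38.p14 on the anchor's chromosome, and no coordinate was converted.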

Additional observations from a re-analysis of the deposited data

How the results depend on the processing

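No paired analysis was possible because each line had 1 library. Of 42 hubs, between 12 and 24 were called higher under the alternatives tried, except 7 when every library was thinned to SW480 and 8 at hubs with an anchor in all 4 libraries. None was called lower, except 3 with HCT116 as the only other line. Over all anchors, 561 higher and 127 lower became 1328 and 57 per 1000000 PETs of all same-chromosome pairs, 32 and 3 after thinning, and 1134 and 1043 with HCT116 as the only other line. The lower count was 61 for loops with an FDR under 0.01, 338 without SW480 and 490 with libraries lacking an anchor left out. The higher count was 117 at anchors that overlap in all 4 libraries. The comparisons with HCT116 alone, without libraries lacking an anchor, and at anchors in all 4 libraries were chosen after seeing the data. Ranking by PETs per kb in place of PETs kept 27 of the 42 hubs, but only 3 of the 25 in the PET list were among the first 25 per kb, since this alternative changed the partner list only where partners were tied. Lists of 100 by PETs and 100 by partners shared 19.5% of the SW480 list and 32.9% of the SW620 list with LS513.

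Some ratios to the highest other library crossed 1. The IER5L hub was at 0.921 per 1000000 of the chromosome, 0.949 for loops with an FDR under 0.01 and 0.944 after thinning. Per kb it was at 0.641, and the NDUFB10 hub was at 0.521 against only 3 SW480 PETs. The AHNAK and PGPEP1 hubs were at 1.11 and 1.06 per 1000000 PETs of all same-chromosome pairs. Without SW480, the CLDN4, ADAP1 and IRF2BP2 hubs were at 1.30, 2.41 and 1.32, and with HCT116 alone at 1.30, 2.41 and 1.68. For hubs where no cause was named, the cause was not tested. SW480, with 13885 filtered PETs, limits every call that rests on it: a hub there needs 3 PETs to reach 216 per 1000000.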

Other observations

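Among the 208 anchors with 100 or more PETs in LS513 at which the lowest other library had 10 or more PETs, 9 were called lower in LS513, and 3 of them are named here after their values were seen. DLGAP1, which encodes a scaffold protein of synapses, lay at chr18:3590146-3629272 with 245 PETs in LS513, 207 in HCT116, 90 in SW480 and 263 in SW620. In normalised PETs these were 1103, 2537, 6482 and 1725, so LS513 was the lowest line and SW480 the highest. An anchor at FLOT1 and IER3, an early-response gene, chr6:30708101-30722099, had 738 normalised PETs in LS513, 1348 in HCT116, 3457 in SW480 and 1358 in SW620. At NRSN2 and TRIB3, a pseudokinase gene of the stress response, chr20:332492-366292, the values were 554, 1128, 2161 and 1352. LS513 was 0.639 of the lowest other library at DLGAP1, 0.548 at FLOT1 and 0.491 at TRIB3, with upper bounds of 0.764, 0.704 and 0.651.

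The other 7 LS513 loops over 1 Mb with 10 or more PETs touched no leading hub. Of these, 3 lay in the HLA class I region of chromosome 6, with 55, 27 and 24 PETs in LS513 and 31, 5 and 3 in HCT116. HLA class I genes are close copies of each other, so these PETs are uncertain. Per kb of anchor, the MUC20P1 anchor ranked first with 99.8 PETs per kb, and the COL4A2 end was the highest leading hub after POP7, at 47.9 against 53.2.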
